A study of Homo sapiens with 6 samples.

Results

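The transcripts of 34 genes that carry out excision repair and mismatch repair of DNA were followed in CAL51 cells, an established human triple-negative breast cancer line. The genes were chosen by symbol: 18 of nucleotide excision repair, 12 of base excision repair and 4 of mismatch repair. Of these, 33 had a row among the 14788 genes deposited, and all 33 passed the filter that left 13765 genes for testing. GTF2H4, a subunit of the repair factor TFIIH, was not analysed here. The libraries came from CAL51 cells carrying TREX1 knockout guide 1 (KO-1, 2 libraries), from CAL51 cells carrying TREX1 knockout guide 2 (KO-2, 2 libraries) and from control CAL51 cells (2 libraries). Lentiviral transduction with the CRISPR v2 system brought in each guide RNA. What the control cells received is not stated in the labels, nor whether a knockout library is 1 clone or a pool, although the deposited description speaks of several clones. Whether the replicates of a group grew in separate dishes is not recorded either; the p-values therefore reflect the scatter among the 6 libraries alone, and it may be technical. Levels of TREX1, a DNA exonuclease of the cytosol, were not used here to check the knockout labels.

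Nucleotide excision repair removes bulky lesions such as those left by ultraviolet light. They are found either by XPC throughout the genome or by a stalled RNA polymerase, opened by TFIIH, cut on each side and filled in. Base excision repair removes single damaged bases: a glycosylase lifts out the base, APEX1 nicks the backbone, and a polymerase and a ligase close the gap. Mismatch repair corrects errors of replication, with MutS proteins that find the mismatch and MutL proteins that direct its removal. The comparison of knockout with control cells asks how the transcripts of these pathways stand in cells made with guides against TREX1.

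Libraries held between 13222933 and 25785055 reads, and KO-2 replicate 1 was the shallowest. The second principal component, with 25.1% of the variance over all genes, placed 5 libraries between 5.18 and 8.94 and KO-2 replicate 1 apart from them, at -33.4. Replicates of the 33 genes differed on the log2 scale with an SD of 0.19 in KO-1, 0.19 in KO-2 and 0.13 in control. Of 6 epithelial markers all were in the table, and their summed level was 2207 to 2216 CPM (reads of a gene as a share of all reads counted, scaled to a fixed total) in KO-1, 2171 to 2198 CPM in KO-2 and 1765 to 1803 CPM in control. Of these, EPCAM, KRT8, KRT18 and KRT19 rose for the mean of both guides and CDH1 and KRT7 were not called (limma). Among 5 leukocyte markers PTPRC and CD14 had a row, with a summed level of 19.1 to 20.9 CPM in KO-1, 16.5 to 16.6 CPM in KO-2 and 15.5 to 16.8 CPM in control. Of 7 fibroblast, endothelial and red cell markers 5 had a row, at 83.5 to 91.5 CPM in KO-1, 86.5 to 91.3 CPM in KO-2 and 85.7 to 87.6 CPM in control. Within that sum COL1A1 rose, with a mean of 29.5 CPM in KO-1, 27.6 CPM in KO-2 and 18.4 CPM in control (limma adjusted p = 0.0039), and CDH5 fell, with 12.4 CPM in KO-1, 11.0 CPM in KO-2 and 15.4 CPM in control (adjusted p = 0.030), while the other 3 were not called. The hormone receptors ESR1 and PGR were not analysed here. The receptor ERBB2, listed with them, fell, with a mean of 164 CPM in KO-1, 183 CPM in KO-2 and 197 CPM in control (limma adjusted p = 0.017). By guide it fell with KO-1 (adjusted p = 0.0059) and was not called with KO-2 (adjusted p = 0.23). The part of these marker levels in the results was not tested.

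Base excision and mismatch repair transcripts had median fold changes below 0 for the mean of both guides, and nucleotide excision repair transcripts were split. For the mean of both guides against control, 14 of the 33 genes fell and 1 rose (limma, p adjusted by the Benjamini-Hochberg method across the 13765 genes, threshold 0.05). The same threshold called 29.6% of all genes in that comparison, 14.9% lower and 14.6% higher. In base excision repair 7 of 12 genes fell and 0 rose, with a median log2 fold change of -0.23. In mismatch repair 2 of 4 fell and 0 rose, with a median of -0.22. In nucleotide excision repair 5 of 17 fell and 1 rose, with a median of -0.00, beside a median of -0.01 over all genes tested. The changes were small: the called genes ran from -0.64 for GTF2H2 to 0.31 for GTF2H1 on the log2 scale.

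**Figure D1:**
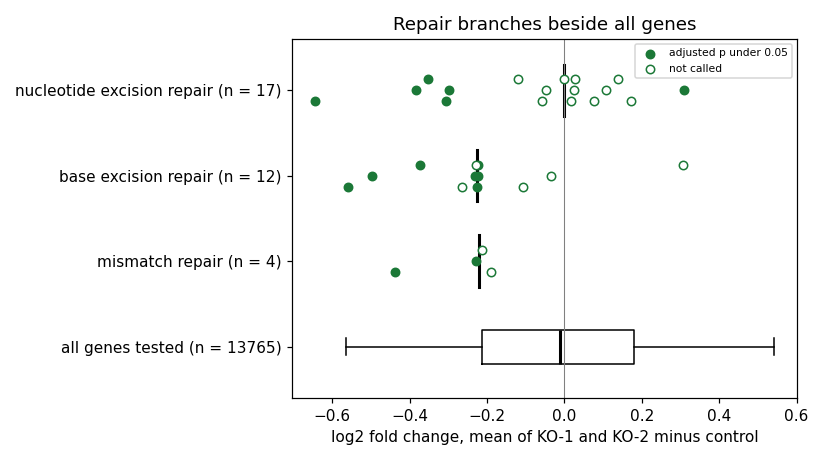
Log2 fold change of each gene for the mean of KO-1 and KO-2 minus control (x axis), by repair branch; filled points passed the test, open points did not, thick black lines are medians. The box gives the quartiles and the whiskers the 5th and 95th percentile of all 13765 genes tested. The medians of base excision (-0.23) and mismatch repair (-0.22) lie left of that of all genes (-0.01), and that of nucleotide excision repair does not (-0.00).

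In 17 of the 33 genes all 4 knockout libraries lay below both control libraries, and in 2 they lay above. Over all genes tested these shares were 24% and 22.3%, or 46.3% on either side. The 17 included 7 genes of base excision repair, all 4 of mismatch repair and 6 of nucleotide excision repair. The median of the base excision genes, each taken relative to its control mean, was -0.31 and -0.21 in the KO-1 libraries, -0.17 and -0.22 in the KO-2 libraries, and 0.02 and -0.02 in the control libraries. For mismatch repair it was -0.30 and -0.21 in KO-1, -0.11 and -0.31 in KO-2, and 0.02 and -0.02 in control. For nucleotide excision repair it was -0.18 and -0.03 in KO-1, 0.06 and -0.04 in KO-2, and -0.00 and 0.00 in control, so the knockout libraries lay on either side of the control ones. The calls rested on both control libraries: of the 15 genes called, 2 kept their call without control replicate 1 (ERCC2 and GTF2H3) and 5 without control replicate 2 (ERCC2, GTF2H2, OGG1, TDG and PMS1). Without a mean-variance trend in the test 7 of the 15 kept it (ERCC2, GTF2H3, ERCC4, OGG1, NTHL1, TDG and PMS1).

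**Figure D2:**
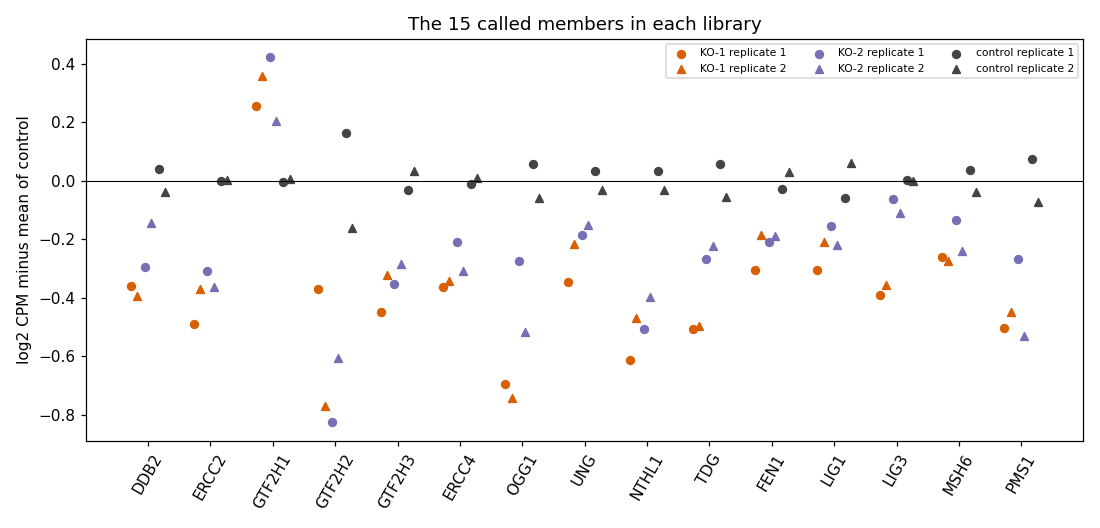
Log2 CPM of each of the 15 called genes minus its control mean (y axis) in the KO-1, KO-2 and control libraries; circles are replicate 1 and triangles replicate 2. For GTF2H1 the 4 knockout libraries lie above both control libraries, and for the other 14 genes they lie below.

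Of the 5 factors that first recognise damage across the genome, DDB2 fell and the other 4 were not called. DDB2, which binds ultraviolet lesions and is a known target gene of p53, had a log2 CPM of 4.29 and 4.26 in KO-1, 4.36 and 4.51 in KO-2, and 4.69 and 4.61 in control. All 4 knockout libraries were below both control libraries, and the transcript fell by 18.7% (log2 fold change -0.30 ± 0.09 SE, limma adjusted p = 0.035). By guide the log2 fold change was -0.38 for KO-1 (adjusted p = 0.023) and -0.22 for KO-2 (adjusted p = 0.19). XPC, the lesion sensor and likewise a known p53 target, had 5.34 and 5.43 in KO-1, 5.40 and 5.41 in KO-2, and 5.44 and 5.46 in control. All 4 knockout libraries lay just below both control libraries, while KO-2 lay within the range of KO-1, and the value of -0.06 ± 0.07 was not called (adjusted p = 0.58). DDB1, the partner of DDB2 in a ubiquitin ligase, stood at 0.02, and RAD23B and CETN2, which stabilise XPC, at 0.14 and 0.17 with no call. DDB2 was no longer called when control replicate 1 (adjusted p = 0.29), control replicate 2 (0.16), KO-1 replicate 1 (0.081) or KO-1 replicate 2 (0.093) was left out. Setting library medians equal (0.065), quantile normalization (0.057) and joining the knockout libraries in 1 group (0.069) likewise ended its call.

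The recognition proteins of transcription-coupled repair had close values in all groups. ERCC6 (CSB), the ATPase that binds a stalled polymerase, had a log2 CPM of 4.90 and 5.00 in KO-1, 4.89 and 4.68 in KO-2, and 4.81 and 4.72 in control, and its log2 fold change was 0.11 (adjusted p = 0.42). ERCC8 (CSA), the subunit of the ubiquitin ligase that acts beside it, had 4.15 and 4.49 in KO-1, 4.27 and 4.39 in KO-2, and 4.25 and 4.40 in control. For ERCC6 both KO-1 libraries lay above the other 4, while KO-2 and control overlapped. For ERCC8 all 3 groups overlapped.

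TFIIH subunits had calls in both directions, as had all genes tested. Of 6 measured, 3 fell, 1 rose and 2 were not called, beside 14.9% lower and 14.6% higher over all genes. ERCC2 (XPD), the helicase that opens DNA around the lesion, had a log2 CPM of 5.59 and 5.71 in KO-1, 5.77 and 5.72 in KO-2, and 6.08 in each control library. It fell by 23.4% (log2 fold change -0.38 ± 0.07 SE, limma adjusted p = 0.0020), and its call held under all 15 alternatives. GTF2H3, a structural subunit of the core, had 5.66 and 5.79 in KO-1, 5.76 and 5.83 in KO-2, and 6.08 and 6.14 in control, and fell by 21.7% (-0.35 ± 0.07, adjusted p = 0.0035). Each of these genes fell with KO-1 (-0.43 for ERCC2 and -0.39 for GTF2H3) and with KO-2 (-0.34 and -0.32).

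GTF2H2, another core subunit, had the lowest fold change of the 33 genes. Its log2 CPM was 3.63 and 3.23 in KO-1, 3.17 and 3.39 in KO-2, and 4.16 and 3.83 in control, on 116 to 414 reads. It fell by 36.0% (-0.64 ± 0.15 SE, limma adjusted p = 0.0097). GTF2H2 has near-identical copies, GTF2H2B and GTF2H2C, and how reads were shared among them is not given, so its level is uncertain. GTF2H2C stood at -0.21 (adjusted p = 0.12) and GTF2H2B at -0.26 (adjusted p = 0.26). GTF2H1, the subunit that contacts XPC and other partners, moved the other way, with 6.78 and 6.88 in KO-1, 6.95 and 6.73 in KO-2, and 6.52 and 6.53 in control. It rose by 24.0% (0.31 ± 0.07, adjusted p = 0.0069), with all knockout libraries above both control libraries. ERCC3 (XPB), the translocase of TFIIH, stood at 0.08 and the small subunit GTF2H5 at 0.02, neither called. The call of GTF2H2 was lost without control replicate 1 (adjusted p = 0.18), that of GTF2H3 without control replicate 2 (0.077), and that of GTF2H1 without control replicate 1 (0.086) and control replicate 2 (0.071).

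Of the genes that verify and cut the damaged strand, ERCC4 fell. ERCC4 (XPF), the catalytic subunit of the nuclease that cuts 5′ of the lesion, had a log2 CPM of 4.34 and 4.36 in KO-1, 4.49 and 4.39 in KO-2, and 4.69 and 4.71 in control. It fell by 19.1% (-0.31 ± 0.09 SE, limma adjusted p = 0.025), a call lost without control replicate 1 (0.18), control replicate 2 (0.20), KO-1 replicate 1 (0.074) and KO-1 replicate 2 (0.065). By guide ERCC4 fell with KO-1 (-0.35, limma adjusted p = 0.025) and was not called with KO-2 (-0.26, adjusted p = 0.11). ERCC1, its partner, had 5.20 and 5.10 in KO-1, 5.50 and 5.39 in KO-2, and 5.48 and 5.36 in control. The KO-1 libraries lay below both others, at -0.27 against control (adjusted p = 0.046), while KO-2 stood at 0.03 (adjusted p = 0.87). The call for KO-1 was lost without either control library (0.32 and 0.12) or either KO-1 library (0.11 and 0.25), and with library medians set equal (0.10) or quantile normalization (0.073). XPA, which checks the lesion, overlapped between groups at 0.03 (95% interval -0.24 to 0.29). ERCC5 (XPG), which cuts 3′ of the lesion, stood at -0.05 on 46 to 121 reads, with an interval of -0.53 to 0.44.

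**Figure D3:**
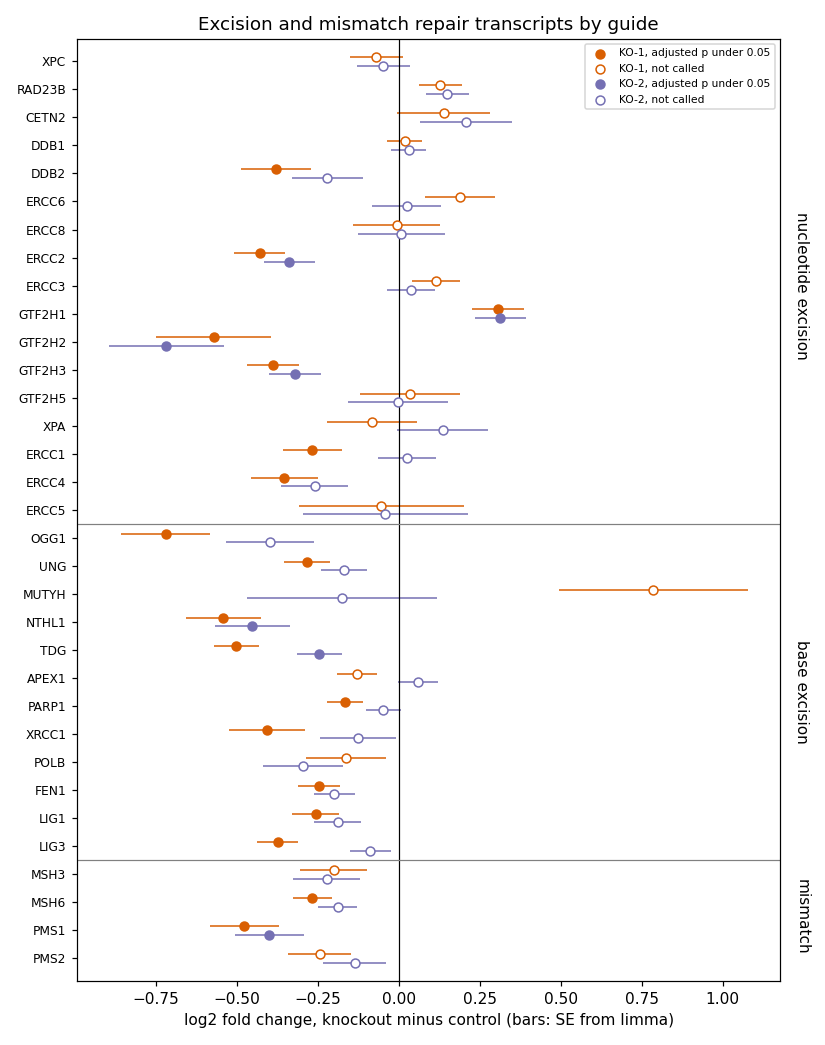
Log2 fold change of each of the 33 genes (rows, by branch) for KO-1 minus control and KO-2 minus control (x axis); bars are standard errors from limma, filled points passed an adjusted p of 0.05. Among the glycosylases OGG1 lies at -0.72 for KO-1 and -0.40 for KO-2, and MUTYH at 0.79 for KO-1 and -0.17 for KO-2.

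DNA glycosylases, which start base excision repair, held the largest falls of that branch: 4 of 5 fell, beside 14.9% called lower over all genes. OGG1, which removes oxidised guanine, had a log2 CPM of 3.46 and 3.41 in KO-1, 3.88 and 3.64 in KO-2, and 4.21 and 4.10 in control. KO-1 lay lowest, KO-2 between, and the groups did not overlap. OGG1 fell by 32.1% for the mean of both guides (-0.56 ± 0.12 SE, limma adjusted p = 0.0053), with -0.72 for KO-1 (adjusted p = 0.0028) and -0.40 for KO-2 (adjusted p = 0.070). NTHL1, which removes oxidised pyrimidines, had 3.95 and 4.09 in KO-1, 4.05 and 4.16 in KO-2, and 4.59 and 4.53 in control, and fell by 29.1% (-0.50 ± 0.10, adjusted p = 0.0042). It fell with each guide, at -0.54 for KO-1 (adjusted p = 0.0054) and -0.45 for KO-2 (adjusted p = 0.023).

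TDG, which removes thymine and oxidised methylcytosine and takes part in DNA demethylation, had a log2 CPM of 6.18 and 6.19 in KO-1, 6.42 and 6.46 in KO-2, and 6.74 and 6.63 in control. Replicates lay close together and the 3 groups were fully separate. It fell by 22.8% (-0.37 ± 0.06 SE, limma adjusted p = 0.0012), with -0.50 for KO-1 and -0.25 for KO-2 (adjusted p = 0.00049 and 0.034). UNG, which removes uracil and is known to be expressed most in S phase, had 6.31 and 6.44 in KO-1, 6.47 and 6.51 in KO-2, and 6.69 and 6.62 in control, and fell by 14.5% (-0.23 ± 0.06, adjusted p = 0.019). By guide UNG fell with KO-1 (-0.28, limma adjusted p = 0.013) and was not called with KO-2 (-0.17, adjusted p = 0.13). Calls for the mean of both guides were lost without control replicate 1 for OGG1 (adjusted p = 0.11), NTHL1 (0.086), TDG (0.0502) and UNG (0.22), without control replicate 2 for NTHL1 (0.051) and UNG (0.10), and without KO-1 replicate 1 for UNG (0.083).

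MUTYH, which removes adenine set opposite oxidised guanine, was the exception among the glycosylases. It rested on 21 to 64 reads, with a log2 CPM of 1.52 and 1.84 in KO-1, 0.78 and 0.67 in KO-2, and 0.75 and 1.04 in control. Both KO-1 libraries lay above all others, at 0.79 ± 0.29 SE, with an interval of 0.14 to 1.43 and no call (limma adjusted p = 0.065). KO-2 stood at -0.17 (adjusted p = 0.72). The difference between the guides was -0.96 (adjusted p = 0.14).

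The genes that process the abasic site and the break showed no call for the mean of both guides. APEX1, the endonuclease that cuts at abasic sites, stood at -0.04, PARP1, the sensor of strand breaks, at -0.11, and XRCC1, the scaffold that gathers the repair enzymes, at -0.26 (limma adjusted p = 0.65, 0.11 and 0.072). XRCC1 had a log2 CPM of 5.18 and 4.94 in KO-1, 5.48 and 5.19 in KO-2, and 5.51 and 5.41 in control. With KO-1 alone XRCC1 fell by 0.41 and PARP1 by 0.17 on the log2 scale (adjusted p = 0.024 and 0.041). PARP1 had 8.63 and 8.61 in KO-1, 8.80 and 8.67 in KO-2, and 8.77 and 8.80 in control, so KO-2 overlapped control. For KO-1 the call of PARP1 was lost without either control library (0.16 and 0.23) or either KO-1 library (0.16 and 0.22) and with library medians set equal (0.16), and that of XRCC1 without control replicate 1 (0.17), control replicate 2 (0.079) and KO-1 replicate 2 (0.21).

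The gap filling, flap removal and ligation genes lay close together, between -0.23 and -0.22 on the log2 scale. Of these 3 of 4 fell, beside 14.9% called lower over all genes. FEN1, the flap nuclease of long-patch repair, had a log2 CPM of 6.97 and 7.09 in KO-1, 7.07 and 7.09 in KO-2, and 7.25 and 7.31 in control (-0.22 ± 0.06 SE, limma adjusted p = 0.012). LIG1, the ligase of replication that also seals excision and mismatch repair patches, had 6.38 and 6.48 in KO-1, 6.53 and 6.47 in KO-2, and 6.63 and 6.75 in control (-0.22 ± 0.06, adjusted p = 0.022). For both genes every knockout library lay below both control libraries. With KO-1 FEN1 stood at -0.25 and LIG1 at -0.26, and both fell (limma adjusted p = 0.015 and 0.022). With KO-2 FEN1 and LIG1 stood at -0.20 and -0.19 and were not called (adjusted p = 0.056 and 0.10). LIG3, the ligase that works with XRCC1 and in mitochondria, had 6.43 and 6.47 in KO-1, 6.76 and 6.71 in KO-2, and 6.82 in each control library (-0.23 ± 0.05, adjusted p = 0.0093). Its fall was larger with KO-1, at -0.37 (adjusted p = 0.0015), than the value of KO-2, at -0.09 (adjusted p = 0.37), and the difference between guides was 0.29 with an interval of 0.15 to 0.42 (adjusted p = 0.056). POLB, the gap-filling polymerase, stood at -0.23 ± 0.11 with no call (adjusted p = 0.13). Leaving out control replicate 1 or 2 ended the calls of FEN1 (adjusted p = 0.087 and 0.17), LIG1 (0.079 and 0.29) and LIG3 (0.12 and 0.11), and leaving out KO-1 replicate 1 ended those of FEN1 (0.062) and LIG1 (0.092). LIG1 was also lost with library medians set equal (0.051), and LIG3 with the knockout libraries as 1 group (0.10).

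All 4 mismatch repair transcripts had every knockout library below both control libraries, and 2 were called. Over all genes tested 24% had that order and 14.9% were called lower. PMS1, a MutL protein whose part in human repair is less defined, had a log2 CPM of 4.95 and 5.01 in KO-1, 5.19 and 4.93 in KO-2, and 5.53 and 5.38 in control. It fell by 26.2% (-0.44 ± 0.09 SE, limma adjusted p = 0.0052), with -0.48 for KO-1 and -0.40 for KO-2 (adjusted p = 0.0068 and 0.027). MSH6, the MutS subunit that finds single-base mismatches, had 7.43 and 7.42 in KO-1, 7.56 and 7.45 in KO-2, and 7.73 and 7.66 in control, and fell by 14.6% (-0.23 ± 0.05, adjusted p = 0.0082). By guide MSH6 fell with KO-1 (-0.27, limma adjusted p = 0.0072) and was not called with KO-2 (-0.19, adjusted p = 0.055). MSH3, the MutS subunit for larger loops, had 5.44 and 5.56 in KO-1, 5.63 and 5.32 in KO-2, and 5.70 in each control library, and its value of -0.21 ± 0.09 was not called (adjusted p = 0.10). PMS2, the MutL endonuclease, had 5.03 and 5.23 in KO-1, 5.30 and 5.18 in KO-2, and 5.35 and 5.40 in control, at -0.19 ± 0.08 with no call (adjusted p = 0.11). PMS2 shares sequence with several pseudogenes, so its reads are uncertain. The calls were lost without control replicate 1 for PMS1 (0.11) and MSH6 (0.16), and without control replicate 2 for MSH6 (0.053).

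Promoter windows of the 4 mismatch repair genes and of LIG1 are shown, since E2F factors are known to drive many genes of S phase. These transcripts all lay lower in the knockout libraries, but they are not all the genes that did. LIG1 was 1 of 7 such base excision genes, and the only one of them with an E2F-type motif in its window. Each window runs from 250 bases before to 50 bases after the gene's start in RefSeq (GRCh38.p14), 5′ to 3′ on the gene's strand, and 33 of the 34 genes had one. Capitals mark letters of an E2F-type motif, searched on both strands as TTTCCCGC, TTTCGCGC, TTTGCCGC or TTTGGCGC. The windows are chr2:47782895-47783194 (plus strand) for MSH6, chr5:80654402-80654701 (plus) for MSH3, chr7:6009057-6009356 (minus) for PMS2, chr2:189784200-189784499 (plus) for PMS1 and chr19:48170295-48170594 (minus) for LIG1.
MSH6: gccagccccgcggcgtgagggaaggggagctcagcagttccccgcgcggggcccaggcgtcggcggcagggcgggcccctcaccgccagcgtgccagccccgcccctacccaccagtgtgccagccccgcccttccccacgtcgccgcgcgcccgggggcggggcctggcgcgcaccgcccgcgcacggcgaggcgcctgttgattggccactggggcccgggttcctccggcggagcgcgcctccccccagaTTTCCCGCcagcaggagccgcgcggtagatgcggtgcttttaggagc
MSH3: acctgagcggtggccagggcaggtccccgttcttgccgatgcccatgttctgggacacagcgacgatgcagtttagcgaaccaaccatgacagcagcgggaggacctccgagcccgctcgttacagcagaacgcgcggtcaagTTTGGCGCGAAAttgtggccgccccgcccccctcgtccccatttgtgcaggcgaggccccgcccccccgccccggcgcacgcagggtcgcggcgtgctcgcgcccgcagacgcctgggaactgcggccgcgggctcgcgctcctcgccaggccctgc
PMS2: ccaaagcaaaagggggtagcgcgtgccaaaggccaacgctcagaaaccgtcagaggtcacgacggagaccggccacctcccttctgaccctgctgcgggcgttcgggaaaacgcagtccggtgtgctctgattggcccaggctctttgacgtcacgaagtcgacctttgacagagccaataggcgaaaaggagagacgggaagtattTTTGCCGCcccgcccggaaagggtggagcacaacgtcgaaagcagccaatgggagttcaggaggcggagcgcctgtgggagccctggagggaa
PMS1: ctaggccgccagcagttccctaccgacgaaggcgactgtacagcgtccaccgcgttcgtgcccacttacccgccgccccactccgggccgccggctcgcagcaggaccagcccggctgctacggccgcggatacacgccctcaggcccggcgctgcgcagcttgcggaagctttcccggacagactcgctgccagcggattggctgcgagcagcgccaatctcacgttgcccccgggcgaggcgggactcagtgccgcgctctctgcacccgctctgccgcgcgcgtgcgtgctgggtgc
LIG1: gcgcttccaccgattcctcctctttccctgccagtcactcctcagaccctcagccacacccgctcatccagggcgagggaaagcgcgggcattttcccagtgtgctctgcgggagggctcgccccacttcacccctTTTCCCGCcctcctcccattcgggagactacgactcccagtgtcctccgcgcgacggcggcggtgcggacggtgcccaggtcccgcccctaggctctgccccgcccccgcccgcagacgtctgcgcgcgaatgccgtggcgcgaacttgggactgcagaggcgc
The motif stood in 3 of the 4 mismatch repair windows, 1 of 11 base excision windows (LIG1) and 1 of 18 nucleotide excision windows (XPC), beside 3.33% of all 27305 windows and 5.35% of those of genes tested. It began 4 bases after the start in MSH6, 43 bases before it in PMS2 and 114 bases before it in LIG1, and in MSH3 a pair of overlapping matches began 107 and 103 bases before it. PMS1 had no match. Of the 14 genes that fell 2 had 1 (MSH6 and LIG1), or 14.3%, beside 3 of the 19 other windows, or 15.8%. Those 3 were MSH3, PMS2 and XPC, which were not called, though all their knockout libraries lay below both control libraries. The window of XPC is not shown. The shorter CCAAT motif, likewise on both strands, stood in 15 of 33 windows, beside 35.7% of all windows. These matches are descriptions of letters, not measured binding sites.

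By guide, 17 of the 33 genes fell and 1 rose with KO-1, while 29.7% of all genes were called, 15.1% lower and 14.6% higher. With KO-2, 6 fell and 1 rose, beside 16.9% of all genes, 8.19% lower and 8.73% higher. The genes that fell with KO-2 were ERCC2, GTF2H2, GTF2H3, NTHL1, TDG and PMS1, and GTF2H1 rose. In base excision repair 9 of 12 genes fell with KO-1 and 2 of 12 with KO-2. The base excision count for KO-2 is 16.7% of the branch, beside 16.9% of all genes called in either direction and 8.19% called lower. In mismatch repair 2 of 4 fell with KO-1 and 1 of 4 with KO-2. In nucleotide excision repair 6 of 17 fell and 1 rose with KO-1, and 3 fell and 1 rose with KO-2. The guides share their control libraries, so these counts are not independent. The direct test of KO-2 against KO-1 called 0 of the 33 genes with limma (1.14% of all genes, 0.806% lower and 0.334% higher in KO-2), with 7 at an unadjusted p below 0.05, and 0 with voom on recovered reads. KO-2 was the higher of the guides in 26 genes and KO-1 in 7. Over all 13765 genes tested KO-2 was the higher in 6841 and the lower in 6924. Of the calls for KO-1, those of ERCC2, OGG1, TDG and LIG3 held whichever single library was left out, and the other 14 were lost in at least 1 case. All 7 calls for KO-2 were lost without control replicate 1 and likewise without control replicate 2.

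The count of calls between the guides changed when a KO-2 library was left out. Without KO-2 replicate 2, 8 genes were called, all higher in KO-2 replicate 1 than in KO-1: CETN2 (0.32), ERCC1 (0.35), OGG1 (0.44), TDG (0.23), APEX1 (0.26), PARP1 (0.18), XRCC1 (0.43) and LIG3 (0.31), by limma log2 fold change. That fit called 3170 of all 13765 genes, so the share of the 33 genes was near that of all genes. Without KO-2 replicate 1, TDG (0.28) and LIG3 (0.26) were called, and 737 of all genes. With 1 library in a group, that library is assumed to vary like the others. In the authors' deposited table the false discovery rate was below 0.05 for 18 of the 33 genes with KO-1 (17 lower and 1 higher), for 8 with KO-2 (7 lower and 1 higher) and for 0 between the guides. Over all genes the shares in the authors' deposited table were 29%, 16.7% and 1.49%.

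Levels between genes were compared as CPM per kilobase of annotated exon. APEX1 was the most abundant transcript, at 116 in KO-1, 133 in KO-2 and 127 CPM per kb in control, followed in control by RAD23B (67.6), FEN1 (62.6) and PARP1 (61.5). FEN1 and PARP1 did not differ beyond their spread over the 6 libraries (50.6 to 63.8 and 54.3 to 62.3). MUTYH and ERCC5 were the lowest, at 0.45 and 0.55 CPM per kb in control. Between these ends the levels spanned every branch: in control UNG had 39.3, MSH6 18.8, ERCC2 10.5 and OGG1 2.03 CPM per kb. The exon lengths come from GENCODE release 29, since no source used here gives the authors' annotation.

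**Figure D4:**
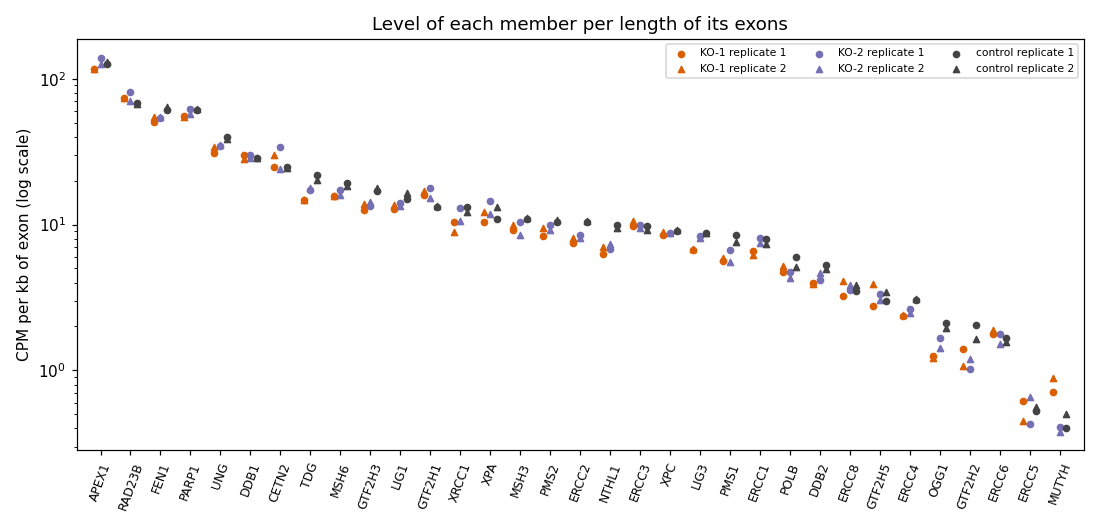
Level of each gene in CPM per kilobase of exon (y axis, log scale) in the KO-1, KO-2 and control libraries, ordered by the control mean; circles are replicate 1 and triangles replicate 2. APEX1 lies highest at 116 to 140 and MUTYH lowest at 0.38 to 0.89 CPM per kb over the 6 libraries.

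Several genes share exon bases with a neighbour, and no source used here says whether counting used strand. ERCC5 (chromosome 13, 102807146 to 102876001, plus strand, hg38) shares 63.2% of its exon bases with the readthrough gene BIVM-ERCC5 on the same strand. MUTYH (chromosome 1, 45329163 to 45340470, minus strand) shares 14.1% with TOE1 on the opposite strand, and TOE1 stood at 0.05 (limma adjusted p = 0.72). OGG1 (chromosome 3, 9749944 to 9788219, plus strand) shares 25.0% with CAMK1 on the opposite strand, which stood at 0.10 (adjusted p = 0.78). OGG1 also shares 4.1% with TADA3 on the opposite strand, a more abundant transcript (control mean log2 CPM 6.62). TADA3 stood at -0.21 for the mean of both guides (adjusted p = 0.075) and fell with KO-1 (-0.29, adjusted p = 0.040). NTHL1 (chromosome 16, 2039815 to 2047866, minus strand) shares 16.5% with TSC2 on the opposite strand, and TSC2 fell too, by 0.33 on the log2 scale (adjusted p = 0.021). FEN1 shares 2.0% with FADS2 on the same strand, and FADS2 fell by 0.44 (adjusted p = 0.00049). LIG3 shares 29.1% with RFFL (-0.03, adjusted p = 0.88), and MSH6 shares 16.2% with FBXO11, which rose by 0.18 (adjusted p = 0.045). ERCC4 shares 25.7% with an antisense gene not analysed here, and ERCC1 shares 28.6% with CD3EAP, likewise not analysed here. TDG, UNG, DDB2, GTF2H1 and GTF2H2 share no exon bases with another gene of that annotation. The part of shared exon bases in these results was not tested.

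The other genes of these pathways, 37 in all, gave 14 that fell and 2 that rose for the mean of both guides, with a median log2 fold change of -0.17, beside 14.9% lower and 14.6% higher over all genes. Of 13 further base excision genes 7 fell and 0 rose, with a median of -0.24. TDP1, which clears blocked 3′ ends, was at -0.46 (limma adjusted p = 0.0011), the endonuclease APEX2 at -0.47 (adjusted p = 0.0031), and the glycosylases NEIL3 and SMUG1 at -0.53 and -0.40 (adjusted p = 0.0057 and 0.0087). All 4 fell. APEX2 lost its call without control replicate 2 (0.065), NEIL3 without control replicate 1 (0.13) and SMUG1 without control replicates 1 and 2 (0.13 and 0.091), while that of TDP1 held under all 15 alternatives.

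Among 12 further nucleotide excision genes 2 fell and 2 rose (33.3% called, near the 29.6% of all genes), with a median of -0.02. RPA1, which coats the opened strand, fell by 0.69 on the log2 scale (limma adjusted p = 5.5e-05), and this call too held under all 15 alternatives. Of the kinase of TFIIH, CDK7 rose by 0.29 (adjusted p = 0.013) and its cyclin CCNH fell by 0.34 (adjusted p = 0.045). MNAT1, listed with them, stood at -0.02 and was not called (adjusted p = 0.91). The call of CCNH was lost under 9 of 15 alternatives, and CCNH was not called with KO-2 (-0.25, adjusted p = 0.23). CUL4B, a scaffold of the DDB1 ubiquitin ligase, rose by 0.17 (adjusted p = 0.032). By guide CUL4B rose with KO-1 (0.21, limma adjusted p = 0.024) and was not called with KO-2 (0.13, adjusted p = 0.17). Calls were lost without control replicates 1 and 2 for CDK7 (0.19 and 0.083), CCNH (0.10 and 0.39) and CUL4B (0.12 and 0.33), without KO-1 replicate 1 for CDK7 (0.054), CCNH (0.14) and CUL4B (0.094), and without KO-1 replicate 2 for CCNH (0.068) and CUL4B (0.11). Quantile normalization also ended the calls of CCNH (0.075) and CUL4B (0.051).

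Of the polymerase and clamp genes that fill repair patches, 5 of 10 fell and 0 rose, with a median of -0.24. Over all genes 14.9% were called lower and 14.6% higher. Subunits of DNA polymerase delta were at -0.41 for POLD1, -0.39 for POLD2 and -0.33 for POLD3 (limma adjusted p = 0.0048, 0.00097 and 0.0063), and all 3 fell. By guide POLD3 fell with KO-1 (-0.40, adjusted p = 0.0047) and was not called with KO-2 (-0.26, adjusted p = 0.054). The clamp loader subunit RFC3 fell by 0.28 (adjusted p = 0.0045). Without control replicate 2 the calls of POLD1 (0.073), POLD3 (0.13) and RFC3 (0.069) were lost, and without control replicate 1 that of RFC3 (0.078). MLH3 and EXO1, a MutL protein and an exonuclease of mismatch repair, stood at -0.08 and -0.07 with no call (adjusted p = 0.62 and 0.58).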

How the data were processed

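Bulk RNA sequencing of poly(A) RNA was analysed for 6 CAL51 libraries. The submitters' processing notes name, with no role or order, fastp, STAR 2.7, featureCounts, Subread 2.0, edgeR and the build hg38. No source used here gives the annotation, strand setting or gene filter. The authors deposited log2 CPM values per gene, and their own comparisons as log2 fold changes with p-values and false discovery rates. Groups were taken from the sample titles. Subtracting the prior of 0.102 CPM behind the shared minimum gave whole reads for 100% of values (tolerance 0.01 reads).

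Genes with at least 1 CPM in at least 2 libraries were tested with limma (version 3.58.1, R 4.3.3), as a group-means model over all 6 libraries with a mean-variance trend (3 residual and 8.02 prior degrees of freedom). A fold change here compares log2(CPM + prior), which understates the change of low genes. The fit was also run on simulated data with planted changes. Alternatives covered the trend, filters, pseudocount, scaling, samples fitted, the replicate block and each library left out; voom on recovered reads was chosen after seeing the data.

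The genes and lists were chosen with earlier results of these data known. A gene was given library by library where a comparison called it or where it is a known p53 target or S-phase gene; MUTYH, ERCC6, ERCC8, MSH3 and PMS2 were added after their values were seen. Other pathway genes are the up to 4 with the smallest p per list, with PARG added for its call between the guides and MNAT1 as a part of the same kinase. Promoter sequences are from RefSeq (GRCh38.p14).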

Additional observations from a re-analysis of the deposited data

Results flagged for a closer look

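PARG, the enzyme that removes poly(ADP-ribose) chains and the only one of the 37 other pathway genes to be called between the guides, differed between KO-2 and KO-1 by a log2 fold change of -0.37 ± 0.08 (SE, limma adjusted p = 0.044). Its log2 CPM was 6.08 and 5.92 in KO-2, 6.39 and 6.36 in KO-1, and 6.39 and 6.35 in control. It fell with KO-2 (-0.37, adjusted p = 0.0098) and stood at 0.00 with KO-1 (adjusted p = 0.97). The call between the guides was lost without control replicate 1 or 2 (0.13 each), KO-1 replicate 1 (0.41) and KO-1 replicate 2 (0.42), as well as without a mean-variance trend (0.24), with only the libraries of the contrast (0.13) and with a replicate block (0.063). Over the 15 alternatives the adjusted p ran from 0.00053 to 0.42.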

How the results depend on the processing

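The main counts of repair genes called were 15 of 33 for the mean of both guides, 18 for KO-1, 7 for KO-2 and 0 for KO-2 against KO-1. Without a mean-variance trend they were 7, 9 and 0 for the comparisons with control. Over all genes that setting called 2201, 2345 and 162, where the main fit called 4068, 4089 and 2329. With only the libraries of the contrast KO-2 gave 4, beside 1371 of all genes. Voom on recovered reads, chosen after seeing the data, gave 11 for KO-2, beside 2663 of all genes. Leaving out 1 library at a time gave 2 to 21 for the mean of both guides, 5 to 23 for KO-1, 0 to 14 for KO-2 and 0 to 8 for KO-2 against KO-1. The calls over all 13765 genes moved with them, at 1286 to 6075, 1694 to 6255, 362 to 4565 and 0 to 3170 in the same order. These fits gave a median of the nucleotide excision genes of -0.080 to 0.023; where 1 library of a group remains, it is assumed to vary like the others. With library medians set equal the base excision median was -0.18. Libraries of the same replicate number did not deviate together (correlations -0.05 to 0.04). With 2 libraries per group this cannot show whether the numbers mark pairs in the experiment. With a replicate block the counts were 16, 17, 6 and 0, beside 3782, 3829, 2054 and 105 of all genes. PARP1 for KO-1 (limma adjusted p = 0.053) and TDG for KO-2 (0.054) were then no longer called, and XRCC1 was called for the mean of both guides (0.036). Of 1409 values of single genes over 94 results, 23 changed sign, for 8 genes that were not called. Those were DDB1 under quantile normalization (-0.038), voom (-0.0094), ERCC8 under log2(CPM + 1) (0.000088), medians set equal (0.046) and quantile normalization (0.033), GTF2H5 and XPA under voom (-0.019 and -0.020) and APEX1 with medians set equal (0.011). With 1 library left out, values ran from -0.0026 to 0.051 for DDB1, -0.085 to 0.084 for ERCC8, -0.11 to 0.14 for GTF2H5, -0.10 to 0.15 for XPA, -0.20 to 0.10 for ERCC5, -0.073 to 0.0017 for APEX1, -0.14 to 0.000043 for EXO1 and -0.19 to 0.026 for MLH3. The cause of these shifts was not tested. MUTYH and ERCC5, on 21 to 64 and 46 to 121 reads a library, had the widest errors of the 33 genes.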
